A study of Mus musculus with 6 samples.

Results

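The genes described are 9 members of the interleukin-1 (IL-1) receptor family and of its proximal signalling complex, out of 15599 genes that had a read in at least 1 library: the receptor chains Il1r1, Il1rap, Il1rl1, Il18r1 and Il18rap, and the adaptors and kinases Myd88, Irak1, Irak4 and Traf6. They were taken by symbol, and the set was chosen by its differences between the genotypes in these same 6 libraries. The RNA is that of LT-HSC (long-term haematopoietic stem cells) sorted from the bone marrow of C57BL/6 mice as lineage-depleted cells positive for Sca-1, Kit and CD150 and negative for CD34, CD48 and Flk2. The labels give 3 libraries from Itpkb-/- mice, which carry the ENU-induced allele Ms T-less, and 3 from wild-type (WT) litter mate controls. Each library was a pool of 4 age-matched mice with at least 10000 sorted cells, so one animal cannot be told from another within it, and no age is given. Itpkb encodes inositol-trisphosphate 3-kinase B, and the series asked how its loss changed the LT-HSC transcriptome. The labels name no promoter or Cre that limits the allele to stem cells.

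IL-1 binds the chain encoded by Il1r1, which then pairs with the accessory chain encoded by Il1rap. The intracellular TIR domains of the pair gather the adaptor MyD88 and the kinases IRAK4 and IRAK1, which hand the signal to the ubiquitin ligase TRAF6 and on to NF-kappaB and the MAP kinases. The IL-33 receptor (ST2, from Il1rl1) uses the same accessory chain, and the IL-18 receptor (from Il18r1 and Il18rap) uses the same adaptors. In blood-forming tissue, IL-1 is known to push stem cells into division and towards myeloid cells.

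Of the 9 genes, 4 are neighbours in a cluster of 6 receptor genes on mouse chromosome 1, all on the plus strand. In GENCODE M21 on build mm10 the order is Il1r2 (40074079 to 40125231), Il1r1 (40225080 to 40317257), Il1rl2 (40324610 to 40367562), Il1rl1 (40429570 to 40465415), Il18r1 (40465552 to 40500854) and Il18rap (40515362 to 40551705), a span of 478 kb. Il1rl1 ends 136 bases before Il18r1 begins. The bases just before the RefSeq starts (build GRCm38.p6, the assembly of mm10) are shown for the 4 genes of the cluster that are members, with both starts of Il1r1, because these neighbours had differences of the same sign. Stretches that overlap an annotated exon were left out, which shortens the Il18r1 sequence to the 133 bases between the RefSeq end of Il1rl1 and its own start. Capitals mark matches, on either strand, to 4 motifs, which are TGANTCA for AP-1, AGATAA for the GATA factors, TGTGGT for the RUNX factors and GGAAGT for the ETS factors.
Il1r1, first start (chr1:40224830-40225079, plus strand): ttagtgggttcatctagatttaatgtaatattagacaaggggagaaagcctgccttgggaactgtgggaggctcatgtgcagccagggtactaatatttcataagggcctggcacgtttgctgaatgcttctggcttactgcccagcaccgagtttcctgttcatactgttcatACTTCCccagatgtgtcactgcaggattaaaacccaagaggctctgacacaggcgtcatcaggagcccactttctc
Il1r1, second start (chr1:40266336-40266585, plus strand): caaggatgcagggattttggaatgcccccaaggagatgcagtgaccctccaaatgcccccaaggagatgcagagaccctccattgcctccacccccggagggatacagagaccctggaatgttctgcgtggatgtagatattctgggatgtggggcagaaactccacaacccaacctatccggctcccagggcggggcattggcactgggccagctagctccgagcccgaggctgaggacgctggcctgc
Il1rl1 (chr1:40429320-40429569, plus strand): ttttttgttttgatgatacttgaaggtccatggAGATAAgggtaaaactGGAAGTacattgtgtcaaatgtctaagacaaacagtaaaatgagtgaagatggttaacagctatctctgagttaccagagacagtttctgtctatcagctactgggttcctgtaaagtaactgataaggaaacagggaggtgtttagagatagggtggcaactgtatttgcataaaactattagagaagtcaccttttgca
Il18r1 (chr1:40465419-40465551, plus strand): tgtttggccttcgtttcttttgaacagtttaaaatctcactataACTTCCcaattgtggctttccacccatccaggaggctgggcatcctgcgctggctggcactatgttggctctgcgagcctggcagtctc
Il18rap (chr1:40515112-40515361, plus strand): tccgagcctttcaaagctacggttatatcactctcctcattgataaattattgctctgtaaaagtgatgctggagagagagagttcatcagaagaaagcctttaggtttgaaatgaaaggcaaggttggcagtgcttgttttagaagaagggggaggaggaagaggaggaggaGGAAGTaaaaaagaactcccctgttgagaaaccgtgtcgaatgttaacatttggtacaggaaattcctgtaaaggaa
An ETS match lay 76 bases before the first RefSeq start of Il1r1, 201 bases before the Il1rl1 start, 89 before that of Il18r1 and 77 before that of Il18rap. Of all 32851 promoters in the RefSeq table, 19.7% held an ETS match in the 250 bases before the start and 12.5% in the last 133. A GATA match lay in the Il1rl1 sequence, as in 9.99% of such windows, and the second Il1r1 start had no match to any of the 4 motifs. None of the 5 sequences held an AP-1 or RUNX match, which 6.75% and 14.05% of windows of 250 bases held. The window of 250 bases before Il1rl2, which is not a member, is not shown, though its difference had the same sign. It held no ETS, GATA or AP-1 match and 1 RUNX match, 247 bases before the start. These matches are letters in a window and say nothing of binding.

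Values are normalized CPM, that is, reads divided by 1 factor per library for depth and composition. The libraries held 4024203 to 7470329 reads, and 3 reads, taken as the detection floor, equalled 0.393 to 0.746 normalized CPM. The sort genes Kit (615 to 911), Ly6a, which encodes Sca-1 (108.3 to 161.6), and Slamf1, which encodes CD150 (42.6 to 59.2), were present in every library. The LT-HSC markers Procr, Hlf, Mecom and Fgd5 were lower in Itpkb-/- libraries (limma, adjusted p = 0.00303 to 0.0881). Itpkb itself was at 10.2, 13.99 and 18.2 normalized CPM in the Itpkb-/- and 22.1, 23.6 and 25.1 in WT libraries (log2 difference -0.73, SE 0.24; limma, adjusted p = 0.172, and 0.0541 with the replicate number as a block). One library stood apart in a sum: over 16 granulocyte markers, Itpkb-/- replicate 2 reached 18852 normalized CPM, where the other 5 libraries lay between 753 and 6877. Mpo alone made up 8728 of it, against 588 in Itpkb-/- replicate 1. In Ngp, Lcn2, Retnlg, Mmp8, Mmp9 and Cxcr2 Itpkb-/- replicate 1 was higher than replicate 2, and in the rest of the list replicate 2 was higher. In sorted pools, fewer cells of a type and less RNA per cell cannot be told apart.

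All 9 genes passed the filter on low values. Differences are on the scale of log2(normalized CPM + 1), Itpkb-/- minus WT, from a limma fit of the 12008 genes that reached 1 normalized CPM in 3 or more libraries. Calls were made at adjusted p values up to 0.15, as the series design text sets. Since this comparison chose the 9 genes, their differences are a description, and no p is given for them. In all, 3 of the 9 were called, each as higher in Itpkb-/- cells: Il1r1, Il18r1 and Il18rap. Over all genes tested 5.50% were called, 2.27% as higher. For counts at an unadjusted p under 0.05, given below for some lists, no share over all genes was taken. The difference was above 0 for 8 of the 9 genes and for 50.2% of all genes, with medians of 0.71 and 0.00183.

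The largest difference was that of a ligand-binding chain. Il1r1, the signalling receptor of IL-1, was at 75.4, 58.6 and 64.6 normalized CPM in libraries 1, 2 and 3 of Itpkb-/- and at 15.7, 18.4 and 17.3 in those of WT, the order kept throughout. The genotypes were far apart and the libraries within each close together, with means of 66.2 ± 8.5 and 17.1 ± 1.37 (SD, n = 3 each), a 3.87-fold ratio. The log2 difference was 1.89 (SE 0.18), and between same-numbered libraries it was 2.20, 1.62 and 1.84. These values rest on 346, 377 and 493 reads in Itpkb-/- and 63, 123 and 93 in WT libraries. Il1r1 was called under each of the 16 alternatives, with differences from 1.73 to 2.02.

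**Figure D1:**
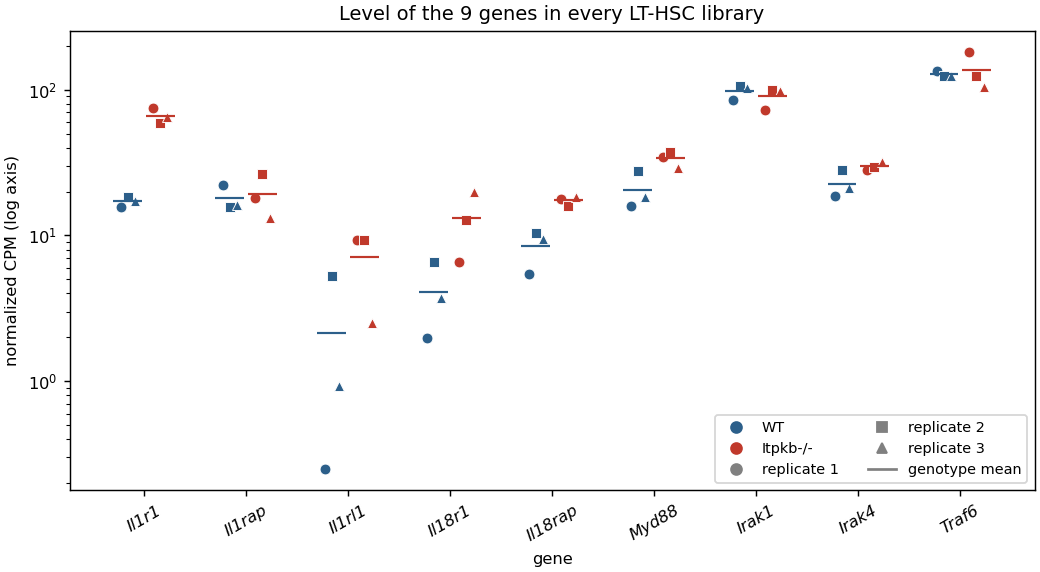
Level of the 9 genes in normalized CPM (log axis) in each library, WT in blue and Itpkb-/- in red, with a symbol per replicate number and a line at each genotype mean (n = 3). The Il1r1 values of Itpkb-/- libraries (58.6 to 75.4) lie far above those of WT (15.7 to 18.4), while those of Il1rap, Irak1 and Traf6 overlap.

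The partner chain was not called. Il1rap, the accessory chain shared by the IL-1, IL-33 and IL-36 receptors (chromosome 16, 26581704 to 26730117, plus strand), was at 18.1, 26.4 and 13.2 normalized CPM in the Itpkb-/- and 22.1, 15.5 and 16.2 in WT libraries. The ranges overlapped, with means of 19.2 ± 6.67 and 17.96 ± 3.63 (SD, n = 3 each) and a log2 difference of 0.06 (SE 0.27). Its sign turned in 5 of the 16 alternatives, among them without Itpkb-/- replicate 2 (-0.19), WT replicate 2 (-0.0304) and WT replicate 3 (-0.00254). The ratio of Il1r1 to Il1rap within a library, which does not depend on library scaling, was 7.44, 3.96 and 8.71 in Itpkb-/- and 1.26, 2.11 and 1.91 in WT libraries, each gene taken per kb of merged exons. Every Itpkb-/- ratio lay above every WT ratio.

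Both chains of the IL-18 receptor were higher in Itpkb-/- cells. Il18rap, the accessory chain, was at 17.9, 15.8 and 18.5 normalized CPM in the Itpkb-/- and 5.47, 10.5 and 9.49 in WT libraries. The groups did not overlap, with means of 17.4 ± 1.37 and 8.48 ± 2.65 (SD, n = 3 each) and a log2 difference of 1.00 (SE 0.28). Over all genes tested, 10.0% had all Itpkb-/- libraries above all WT libraries. Il18r1, the ligand-binding chain, was at 6.53, 12.7 and 19.9 in Itpkb-/- and 1.99, 6.58 and 3.72 in WT libraries, with means of 13.1 ± 6.7 and 4.10 ± 2.32 and a log2 difference of 1.45 (SE 0.44). Its lowest Itpkb-/- library, 1, lay just under its highest WT library, 2, so the groups overlapped at that edge, and each same-numbered pair was higher in Itpkb-/- (1.33, 0.86 and 2.15).

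The calls of the IL-18 receptor genes were less stable than that of Il1r1. Each held in 8 of the 16 alternatives. The Il18r1 call was lost without Itpkb-/- replicate 2 (log2 difference 1.40) or 3 (1.10) and without WT replicate 1 (1.11) or 3 (1.44). The Il18rap call was lost without any one Itpkb-/- library (0.98, 1.06 and 0.95 without replicates 1, 2 and 3) and without WT replicate 1 (0.74) or 3 (1.09). Both were lost, with positive differences, without both libraries numbered 2 (1.74 for Il18r1 and 1.22 for Il18rap), with no filter on low values and with a covariate for the mean of the granulocyte genes (1.68 and 1.10). With library totals made equal Il18r1 alone of the 3 lost its call (1.42).

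Il1rl1, which encodes ST2, the receptor of IL-33 known from mast cells and innate lymphoid cells, was the most uneven of the chains. It was at 9.37, 9.32 and 2.49 normalized CPM in the Itpkb-/- and at 0.249, 5.23 and 0.931 in WT libraries, the lowest of these being a single read. The groups overlapped, with means of 7.06 ± 3.96 and 2.14 ± 2.7 (SD, n = 3 each), and the log2 difference of 1.55 (SE 0.61) was not called. It was called without Itpkb-/- replicate 3 (2.07), without WT replicate 2 (2.21) and with the replicate number as a block. The table does not separate the membrane form of ST2 from the soluble form.

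Markers of cells that carry these receptors were examined beside them. Of 11 mast cell and basophil markers 6 were tested, and Gzmb and Fcer1a were higher in Itpkb-/- libraries (limma, adjusted p = 0.0506 and 0.0595). The other 4 overlapped between genotypes and did not pass, with log2 differences of 1.02 for Hdc, 0.05 for Cpa3, -1.09 for Prss34 and -1.16 for Mcpt8 (limma, adjusted p = 0.463 to 0.976). The mast cell protease genes Tpsb2 and Tpsab1 were at 0 in all 6 libraries, and the list summed to 12.3 to 55.9 normalized CPM in the Itpkb-/- and 19.2 to 23.4 in WT libraries. Fcer1a, a chain of the IgE receptor, was at 8.71, 5.44 and 6.03 against 1.99, 0.598 and 2.05. Gzmb was at 4.14, 5.28 and 1.31 (19, 34 and 10 reads) against 0 in each WT library. By edgeR 5 mast cell and basophil markers were tested and 1 was called. By limma 5.50% of all genes tested were called. Of 16 T, NK and innate lymphoid markers 4 were tested, with a median difference of -0.61, and the 1 called was Gata3, a transcription factor of T and innate lymphoid cells, which was lower at 13.3, 9.48 and 14.02 against 27.1, 20.3 and 21.2 (log2 difference -0.86, SE 0.24; limma, adjusted p = 0.115). Rora was at 3.27, 2.49 and 5.11 against 10.4, 5.83 and 8.38, without overlap (log2 difference -1.004, adjusted p = 0.179), and Klrb1c had a difference of -0.37 (adjusted p = 0.676). Which cells the Gata3 and Rora reads came from was not tested. In this list Cd3g and Klrd1 were at 0 throughout, and Cd3e, Ncr1 and Tbx21 each stayed under the floor of 3 reads. This list summed to 110.6 to 298.8 in Itpkb-/- and 94.9 to 139.9 in WT libraries, most of it Nkg7, which was at 164.9, 277.8 and 86.6 against 55.7, 105.8 and 61.4 (limma, adjusted p = 0.153). The 11 monocyte and macrophage markers summed to 300.4 to 967.6 and 424.3 to 658.2, with 0 of 8 tested called (limma; 2 at an unadjusted p under 0.05).

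The granulocyte list summed to 6877, 18852 and 984 normalized CPM in libraries 1, 2 and 3 of Itpkb-/- and to 3931, 2793 and 753 in WT libraries. None (0) of its 16 genes was called (limma; 1 at an unadjusted p under 0.05). With the replicate block 15 were called as higher, where 9.15% of all genes were. Il18r1 was highest in Itpkb-/- library 3, the lowest of that genotype in granulocyte genes, and Il1rl1 was lowest there. With the granulocyte covariate the log2 difference was 1.91 for Il1r1 (1.89 as reported), 1.07 for Il1rl1 (1.55), 1.68 for Il18r1 (1.45) and 1.10 for Il18rap (1.00). Without Itpkb-/- replicate 2 it was 1.97 for Il1r1, 1.29 for Il1rl1, 1.40 for Il18r1 and 1.06 for Il18rap. Beyond these values, the part of such cells in the 4 differences was not tested.

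Across the chromosome 1 cluster the 6 receptor genes all had positive differences, and 4 of them did not overlap between genotypes. Over all genes tested, 50.2% had a positive difference and 10.0% were higher in Itpkb-/- without overlap. Il1r1, Il1rl1, Il18r1 and Il18rap are members of the set that was chosen by these same differences. Il1r2, a decoy receptor that binds IL-1 without signalling, was at 2.40, 6.68 and 1.44 normalized CPM in the Itpkb-/- and at 0.995, 0.149 and 0 in WT libraries. These are 11, 43 and 11 reads against 4, 1 and 0, and the log2 difference of 1.60 (SE 0.50) just missed the limit (limma, adjusted p = 0.151, range over the alternatives 0.0443 to 0.621). Il1rl2, the IL-36 receptor, was at 6.10, 3.26 and 2.23 against 1.49, 0.598 and 1.12 (log2 difference 1.18, SE 0.41; limma, adjusted p = 0.188, range 0.0794 to 0.573). With the replicate block both passed (adjusted p = 0.0443 for Il1r2 and 0.0794 for Il1rl2).

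Genes beside the cluster had smaller differences. Of 18 protein-coding genes in the table that start within 1 Mb of the Il1r1 start, 12 were tested, and 0 of the 6 outside the cluster was called. Map4k4, a kinase gene just before the cluster, was at 56.6 normalized CPM on average in Itpkb-/- and 63.7 in WT libraries (log2 difference -0.18, SE 0.20). Mfsd9, the nearest tested gene after it, was at 3.21 ± 1.97 and 4.12 ± 0.683 (SD, n = 3 each; log2 difference -0.37, SE 0.38; limma, adjusted p = 0.705). Rpl31, Cnot11 and Rnf149 had differences of -0.19, -0.04 and 0.13, and Tbc1d8 of -0.53 (limma, adjusted p = 0.298). Slc9a4, which directly follows Il18rap, was at 0 in every library. Itpkb lies 139.8 Mb beyond the cluster on the same chromosome.

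**Figure D2:**
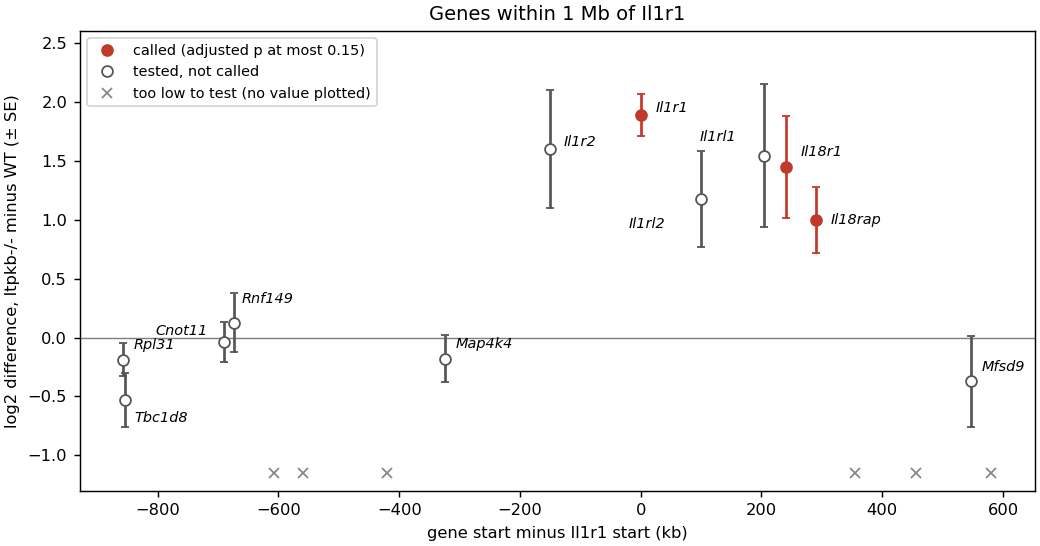
Log2 difference (Itpkb-/- minus WT, bars ± SE, n = 3 per genotype) of the tested genes within 1 Mb of the Il1r1 start, against the distance of each start from that of Il1r1 in kb, filled where called, and crosses at the bottom for 6 genes too low to test. The 6 receptor genes lie between 1.00 and 1.89, and the 6 other tested genes between -0.53 and 0.13.

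None of the adaptor and kinase genes was called. Myd88, the adaptor to which the receptor pair binds (chromosome 9, 119335934 to 119341411, minus strand), was at 34.4, 37.6 and 29.1 normalized CPM in the Itpkb-/- and 15.9, 27.6 and 18.2 in WT libraries. The groups did not overlap, with means of 33.7 ± 4.3 and 20.6 ± 6.21 (SD, n = 3 each), and the log2 difference of 0.71 (SE 0.23) was not called. It was called with the replicate block and without WT replicate 2 (0.94), the WT library in which Myd88 was highest. Irak4, the first kinase of the complex (chromosome 15, 94543643 to 94581815, plus strand), was at 28.1, 29.7 and 32.0 against 18.7, 28.1 and 21.2. Its lowest Itpkb-/- library and its highest WT library differed by under 1 read's worth of signal, and its log2 difference of 0.40 (SE 0.21) was called in 0 of 16 alternatives.

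Irak1 and Traf6, the most abundant of the 9 genes, had, with Il1rap, the ratios between genotypes nearest to 1. Irak1, the kinase that IRAK4 activates (X chromosome, 74013914 to 74023918, minus strand), was at 73.0, 98.8 and 97.8 normalized CPM in the Itpkb-/- and 85.3, 106.3 and 103.3 in WT libraries, a log2 difference of -0.13 (SE 0.16). Traf6, the ubiquitin ligase below the kinases (chromosome 2, 101678429 to 101701669, plus strand), was at 180.8, 123.4 and 104.7 against 134.3, 124.8 and 123.4, a log2 difference of 0.06 (SE 0.18). Both sets of ranges overlapped, and Traf6 was more spread in Itpkb-/- (SD 39.6) than in WT libraries (SD 5.92). Their signs turned without Itpkb-/- replicate 1 (0.00667 for Irak1 and -0.16 for Traf6). Annotated genes on the other strand overlap the ends of Myd88 (Acaa1a), Irak4 (Twf1) and Il1rap (Gm20319), and the library kit did not mark strand, so reads in those overlaps cannot be told apart.

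Levels of different genes were compared per kb of merged exons. In WT cells the order by mean was Irak1 (20.8 normalized CPM per kb), Traf6 (16.2), Myd88 (8.0), Irak4 (4.51), Il1r1 (2.69), Il1rap (1.58), Il18rap (1.26), Il18r1 (0.850) and Il1rl1 (0.310). The libraries of neighbours in this order did not overlap down to Il1rap, and from Il1rap to Il1rl1 each overlapped the next. In Itpkb-/- cells Il1r1 (10.4 per kb) came next after Myd88, above Irak4 (5.96) and overlapping Myd88 (13.1) between libraries, and Il18r1 (2.71) and Il18rap (2.58) stood above Il1rap (1.69) by mean, the first of them with overlapping libraries. The 5 receptor chains spanned 1.02 to 10.4 per kb in Itpkb-/- and 0.310 to 2.69 in WT cells.

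**Figure D3:**
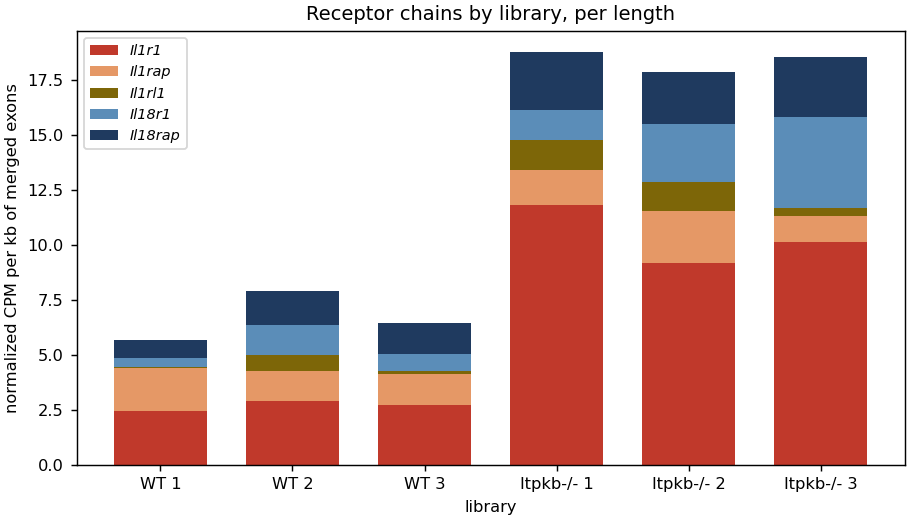
Level of the 5 receptor chains in each library, stacked, in normalized CPM per kb of merged exons. The summed level is 17.9 to 18.8 in the 3 Itpkb-/- libraries and 5.67 to 7.93 in the 3 WT libraries, and Il1r1 makes up 51.5% to 63.0% and 36.4% to 43.4% of it.

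Few of the other listed genes passed. Outside the 9 genes, 8 lists held 108 genes, among them genes beside the chromosome 1 cluster that were listed by position alone. Of the 108, 79 were tested, 2 were called, both higher in Itpkb-/- cells, and 77 did not pass. The 2 called are 2.53% of those tested, beside 5.50% of all genes, and the median difference was 0.05. With the replicate block 16 were called, 11 higher and 5 lower, where 18.1% of all genes were called.

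Ligands of the family were low or at 0. Il1b, the inducible form of IL-1, was at 3.49, 5.44 and 3.67 normalized CPM in the Itpkb-/- and 2.24, 1.196 and 1.30 in WT libraries, without overlap (log2 difference 1.01, SE 0.35; limma, adjusted p = 0.192, range over the alternatives 0.119 to 0.672). Il18, the ligand of the IL-18 receptor, was at 4.79, 4.97 and 5.50 against 8.95, 6.73 and 9.31, also without overlap and in the other direction (log2 difference -0.61, SE 0.28; limma, adjusted p = 0.332). With Il1a, Il33 and 5 others too low to test, 0 of 2 tested ligands was called (1 at an unadjusted p under 0.05, 0 by edgeR), and Il1b was called with the block (0.119). Il1a and Il33 stayed at or under 0.448 normalized CPM in every library.

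Among other receptors and soluble inhibitors, Sigirr, a receptor that restrains IL-1 signalling, was at 24.9 ± 6.46 normalized CPM in the Itpkb-/- and 32.2 ± 5.89 in WT cells (SD, n = 3 each; log2 difference -0.37, limma, adjusted p = 0.486). Il18bp, which captures free IL-18, was at 24.1 ± 3.95 and 18.9 ± 7.75 (log2 difference 0.39; limma, adjusted p = 0.556). With Il1r2 and Il1rl2, 0 of 4 tested genes of this list was called (limma; 2 at an unadjusted p under 0.05). By edgeR 0 of 3 was called, with Il1r2 not tested. Il1rn, the IL-1 receptor antagonist, reached 1 normalized CPM in too few libraries to test. It was at 0.653, 3.26 and 0.131 in Itpkb-/- and 5.22, 0.747 and 0 in WT libraries.

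A positive difference was found for 6 of 7 tested genes that process the ligands, with a list median of 0.21, and for 50.2% of all genes. Casp1, the protease that matures IL-1 beta and IL-18, was at 42.5, 54.2 and 45.3 normalized CPM in the Itpkb-/- and 32.6, 32.0 and 34.4 in WT libraries, without overlap (log2 difference 0.50, SE 0.17; limma, adjusted p = 0.178, range 0.0684 to 0.638). Nlrc4, an inflammasome sensor, had a difference of 1.25 (adjusted p = 0.296) on at most 28 reads a library, and Casp4, the caspase that senses lipopolysaccharide, of 0.31 (adjusted p = 0.377). Of 7 tested genes of this list 0 was called (limma; 2 at an unadjusted p under 0.05), and by edgeR 0 of 6, with Nlrc4 not tested. With the block Casp1 and Nlrc4 were called (adjusted p = 0.0684 and 0.112).

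Of the regulators of the complex and the ubiquitin relay behind TRAF6, none passed. Of 17 tested genes 0 was called (limma; 0 at an unadjusted p under 0.05, 0 by edgeR), with a median difference of -0.04. The largest differences by p were those of Ube2n, the ubiquitin-conjugating enzyme that works with TRAF6 (81.1 ± 2.83 against 103.4 ± 17.6 normalized CPM, log2 difference -0.33), Traf3ip2, an adaptor of the IL-17 receptor (4.88 ± 1.02 against 9.99 ± 5.78, -0.80), and Tab3, a subunit of the TAK1 complex (0.30). Ube2n and Traf3ip2 did not overlap between genotypes and passed as lower with the block (adjusted p = 0.110 and 0.141), against 0.323 and 0.335 without it. Irak3, which blocks the release of the kinases, was at 76.2 and 83.4 normalized CPM on average (log2 difference -0.13).

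In the NF-kappaB arm, 0 of 20 tested genes was called (limma; 6 at an unadjusted p under 0.05, 0 by edgeR), with a median difference of 0.09. Without a share of all genes at that unadjusted p, the 6 are a count only. Nfkb1, a precursor subunit, was at 130.4 ± 10.0 normalized CPM in the Itpkb-/- and 104.1 ± 3.29 in WT cells (SD, n = 3 each; log2 difference 0.32; limma, adjusted p = 0.258). Nfkbiz and Tnip1, which shape and restrain the response, had differences of -0.75 and -0.49 (adjusted p = 0.231 and 0.264). All 3 passed with the block (adjusted p = 0.0868, 0.0816 and 0.0948). Nfkbia, the inhibitor gene that NF-kappaB induces as feedback, was at 27.5 and 30.7 on average, a difference of -0.17 (adjusted p = 0.748). Tnfaip3, Chuk and Tank were higher in Itpkb-/- cells without overlap, with differences of 0.50, 0.50 and 0.46. They did not pass (limma, adjusted p = 0.271, 0.278 and 0.298), and Tank was called with the block.

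In the MAP kinase arm 1 of 13 tested genes was called. Mapkapk2, a kinase that p38 activates, was at 176.6, 189.6 and 166.8 normalized CPM in the Itpkb-/- and 135.0, 116.9 and 115.8 in WT libraries, without overlap (log2 difference 0.53, SE 0.13; limma, adjusted p = 0.0714). Its call was lost without Itpkb-/- replicate 2 (adjusted p = 0.197), WT replicate 2 (0.201), WT replicate 3 (0.299) or both libraries numbered 2 (0.434) and with the granulocyte covariate (0.275), and the adjusted p of the alternatives ran from 0.00697 to 0.434. The p38 gene Mapk14 (-0.12) and the JNK kinase gene Map2k7 (-0.25) had negative differences that did not pass (adjusted p = 0.716 and 0.485).

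Of 23 genes known to be induced by IL-1 or the pathways below it, 13 were tested and 1 was called. Irf1, an interferon-regulatory transcription factor, was at 64.5, 64.2 and 67.6 normalized CPM in the Itpkb-/- and 40.8, 43.9 and 43.7 in WT libraries, without overlap (log2 difference 0.60, SE 0.14; limma, adjusted p = 0.0717, range 0.0160 to 0.319). The call was lost without Itpkb-/- replicate 2 (0.164), without WT replicates 1 (0.183), 2 (0.168) or 3 (0.259), without both libraries numbered 2 (0.319) and with the granulocyte covariate (0.198). Tnf had a difference of 0.95 without overlap, on 4 to 20 reads a library (adjusted p = 0.257). Icam1, an adhesion molecule, had one of -0.56, also without overlap (adjusted p = 0.275, 0.105 with the block). With the block 3 genes of the list were called as higher (Irf1, Lcn2 and Vcam1) and 1 as lower (Icam1). Over all genes 9.15% were called as higher with it. Vcam1 was at 1.31, 40.7 and 1.31 in Itpkb-/- and 0.995, 1.94 and 0.186 in WT libraries, high in Itpkb-/- replicate 2 alone. Lcn2 is also on the granulocyte list. Without the block neither was called (limma, adjusted p = 0.425 for Vcam1 and 0.579 for Lcn2). Spi1 encodes the myeloid factor PU.1 that IL-1 is known to raise in stem cells. It was at 46.6, 112.8 and 55.0 in Itpkb-/- and 54.7, 59.8 and 61.6 in WT libraries (adjusted p = 0.826). The high value lay in the library with the highest granulocyte sum. The chemokine and growth factor genes Cxcl1, Csf2 and Csf3 were at 0 in every library. Ccl3 (1.31, 1.09 and 0.655 against 0, 0.299 and 0) and Ccl2 (1.09, 0.622 and 0.524 against 0, 0.149 and 0) were higher in each Itpkb-/- library. Both missed the filter, on at most 7 reads a library, and Ccl3 was called with no filter on low values. Ccl4 (0.79) and Ccl5 (-0.48) overlapped between genotypes.

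**Figure D4:**
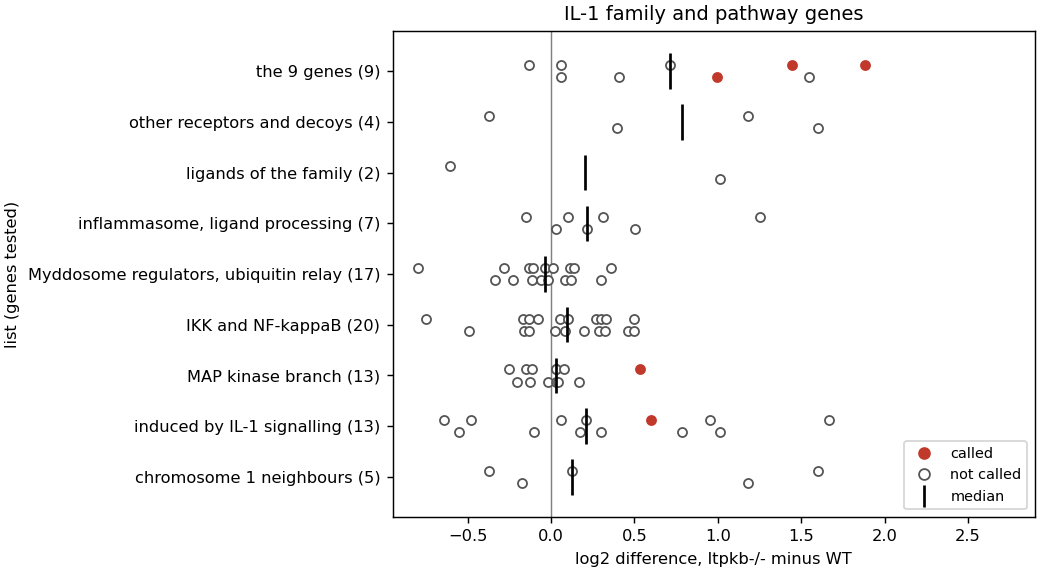
Log2 difference (Itpkb-/- minus WT) of each tested gene of the 9 described and of 8 lists of related genes, with the number tested in parentheses, filled where called and a bar at the list median. Il1r2 and Il1rl2 appear among both the other receptors and the chromosome 1 neighbours, and the medians of the lists below the receptors lie between -0.04 and 0.21.

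The genes whose profile over the 6 libraries was most like that of Il1r1, by the smallest root-mean-square difference between mean-centred log2 values, were Cd69 (0.171), an early activation antigen, Vldlr (0.180), a lipoprotein receptor, Csf2rb2 (0.221), an interleukin-3 receptor chain, Selp (0.242), P-selectin, and H2-Eb1 (0.261), an MHC class II chain. Their differences ran from 1.75 for Cd69 to 2.19 for Csf2rb2. For Il1rl1, the member with the next largest difference, the closest profiles were those of Siglec5 (0.285), Tspo2 (0.378), Olfr417 (0.431), Cd33 (0.437) and Nlrc4 (0.475), all at low levels (mean at most 4.72 normalized CPM in either genotype). Csf2rb2 is near-identical to its neighbour Csf2rb, so the division of reads between them is uncertain.

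**Figure D5:**
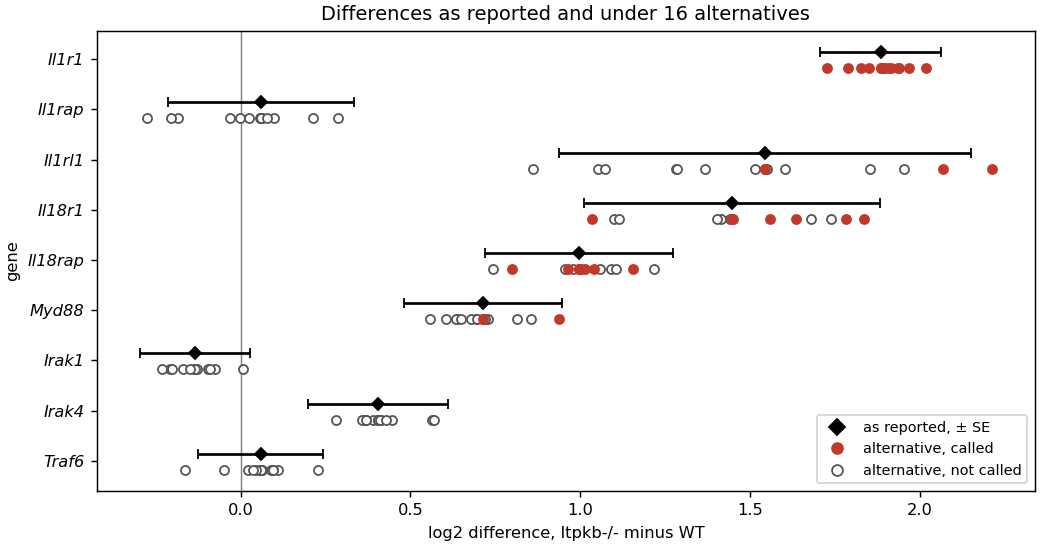
Log2 difference (Itpkb-/- minus WT) of the 9 genes as reported (black, bars ± SE) and under 16 alternatives (circles, filled where called). The Il1r1 values run from 1.73 to 2.02 and are all called, those of Il18r1 from 1.04 to 1.84 and of Il18rap from 0.74 to 1.22, and those of Il1rap, Irak1 and Traf6 fall on both sides of 0.

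The share of all genes called as higher moved with the setting too, and is the background for the members called in each. It was 2.22% and 2.24% with pseudocounts of 0.5 and 4, 2.42% with a mean of at least 4 in at least 1 genotype, 2.33% with DESeq2 size factors and 2.45% with edgeR, and Il1r1, Il18r1 and Il18rap were called in each of these 5. It was 1.67% with equal library totals and 1.12% with no filter on low values. Without Itpkb-/- replicates 1, 2 and 3 in turn it was 3.17%, 0.958% and 2.64%, and without WT replicates 1, 2 and 3 it was 1.17%, 1.02% and 0.308%. The share was 0.533% without both libraries numbered 2 and 0.658% with the granulocyte covariate, and under both Il1r1 was the 1 member called. With the replicate block 5 of the 9 members were called, all higher, where 9.15% of all genes were called as higher.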

How the data were processed

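The authors deposited 1 table with a signal per gene and library: read counts divided by 1 factor per library, called normalized CPM here. The tools named in the submitters' processing notes are TopHat2 2.0.8b, cutadapt, CASAVA 1.8.2, edgeR and Partek, and the build is mm10. An older TopHat stands in the design text of the series, so the aligner version is uncertain. Libraries were made from 1 to 5 ng of RNA with NuGEN Ovation chemistry, per the labels' protocols, and strand is not marked.

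Reads were recovered from the step size of each library, and 100% of values came within 0.01 of a whole read. Floors and read numbers cover counting error only, since the reads carry no molecular identifiers. The main test was limma 3.58.1 (R 4.3.3) with its trend option on log2(value + 1), a scale that understates the change of low genes, over 12008 genes with at least 1 in at least 3 libraries, adjusted by Benjamini-Hochberg over all of them. It was tested on simulated counts. The alternatives used edgeR 4.0.16 on the recovered reads, size factors from DESeq2 1.42.0, other pseudocounts (0.5 and 4) and filters, equal library totals, a replicate block, a granulocyte covariate and left-out libraries. The members and lists were chosen with earlier results of these data known. Genes named are the 9 members, Itpkb, every called gene of each pathway list or its 3 smallest p, and the 5 closest profiles of Il1r1 and of Il1rl1. Others (markers, Map4k4 and the tested genes within 1 Mb, Slc9a4, Il18bp, Il1a, Il33, Il1rn, Irak3, Nfkbia, Tnfaip3, Chuk, Tank, Spi1, Lcn2, Vcam1, Cxcl1, Ccl2, Ccl3, Ccl4, Ccl5, Csf2 and Csf3) were named after their values were seen. Part of the stem cell marker list is not reported here.

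Same-numbered libraries deviated together from their genotype means (r = 0.296, 0.268 and 0.284 across genes), and other pairs correlated at -0.0475 or below, in part by the centring. These values do not settle whether the numbers pair the libraries, and the titles give the numbers with no meaning attached. The main fit took no pairing, and the replicate block is given as an alternative. Libraries of a genotype differed by more than sampling noise (chi-square per degree of freedom 6.10 to 26.7).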

Additional observations from a re-analysis of the deposited data

How the results depend on the processing

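Of the 9 genes, 3 were called as reported. The count was 5 with the replicate block, 1 with no filter on low values, 1 without both libraries numbered 2, 1 with the granulocyte covariate, and 1 to 5 with 1 library left out. Over all genes 661 were called, 2176 with the replicate block, 139 without both libraries numbered 2, 176 with the covariate, and 74 to 837 with 1 library left out (74 without WT replicate 3, 266 without Itpkb-/- replicate 2, 297 without WT replicate 2 and 299 without WT replicate 1). Of the other listed genes 2 were called, 16 with the replicate block, 0 without both libraries numbered 2 (limma, 4 at an unadjusted p under 0.05), 0 with the covariate (7), and 0 to 6 with 1 library left out. The cause of these shifts was not tested, and fewer libraries leave fewer degrees of freedom. The block added Il1rl1 and Myd88 to the members called, and Itpkb passed (adjusted p = 0.0541). Of the 16 other listed genes called with it, 11 were higher and 5 lower. With equal library totals the calls over all genes split into 200 higher and 410 lower, against 272 and 389. Il1rl1 and Il1r2 had few reads, with 1 and 0 in their lowest WT libraries, and Il1rl1 was uneven between WT libraries (1, 35 and 5 reads). With 3 libraries a genotype, an exact permutation test of 1 gene cannot go below 0.1.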
